A study of Mus musculus with 5 samples.

Results

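The genes described here encode the folding and quality control machinery of the endoplasmic reticulum (ER): 12 chaperones and their cofactors, 7 oxidoreductases, 3 stress sensors or factors and 10 genes of ER-associated degradation (ERAD). They were fixed as a list of 32 symbols, and each symbol matched 1 of the 52459 rows of the expression table. The RNA came from cells with a C57BL/6 strain background that derive from HY15549, a mouse pancreatic cancer line, and all of them carried GFP-LC3-RFP, a reporter of autophagy flux. Cells were grown in Matrigel as organoids in DMEM with serum, brought into single-cell suspension and separated by their ratio of GFP to RFP fluorescence. The autophagy-high population (AThi) has 2 libraries and the autophagy-low population (ATlo) has 3. Both populations come from 1 line with the same reporter, and there is no unsorted or reporter-free group among the 5 libraries. The series calls the libraries biological replicates but no label states that the cultures were separate, and the spread behind each p-value may therefore be technical. In bulk RNA, fewer cells that express a gene and less of its RNA per cell cannot be told apart.

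Proteins that enter the ER are bound by the Hsp70 chaperone BiP and by Grp94, receive disulfide bonds from protein disulfide isomerases, and, if they carry N-glycans, pass through cycles of binding to calnexin and calreticulin. Chains that fail to fold are handed to ERAD, in which lectins deliver them to a membrane ubiquitin ligase and the ATPase p97 pulls them into the cytosol for the proteasome. The sensors IRE1, PERK and ATF6 answer an excess of unfolded chains with the unfolded protein response, which raises chaperone and ERAD transcripts, and secretory cells such as those of the pancreas depend on it. The gene values used here do not separate the spliced form of Xbp1 mRNA, which IRE1 makes, from the unspliced form.

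Promoter windows are shown first, because the response acts through short elements near the start of these genes. The ER stress response element (ERSE) is CCAAT, 9 bases of any kind, then CCACG, and ERSE-II is ATTGG, 1 base, then CCACG. Windows of 300 bases, with 250 before the annotated start and 50 from it on, were taken from RefSeq (GRCm38.p6) for 27 of the 32 genes and searched on both strands. An exact ERSE was found in 9 of these 27 genes, against 39 of all 32851 windows (0.119%), which include the 9. ERSE-II was found in Herpud1 and Dnajb11, against 0.0365% of all windows. The core of another element of the response, TGACGTGG, was in none of the 27 genes and in 0.676% of all windows. A plain CCAAT box, which each ERSE contains and whose complement starts each ERSE-II, was in 21 of the 27 genes and in 37.4% of all windows. The genes were listed for their part in ER folding and this response, so the contrast with all windows is no test. Counts for the 27 are of genes, and the others are of windows. These matches are a description of letters in a window and say nothing of binding.

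The sites that lie before a RefSeq start are shown with 10 flanking bases, each read in the direction of the element with both parts in capitals, so that the fixed parts and the free bases between them can be compared. Hspa5, the gene of BiP, comes first. GENCODE M21 places the start of Hspa5 farther upstream than RefSeq does, so its site lies within the GENCODE gene. The ERSE-II of Dnajb11 lies within the transcript, from base 8 after the start, and is not shown.
Hspa5 (chr2:34772015-34772053, plus strand): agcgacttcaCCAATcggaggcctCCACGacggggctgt
Hsp90b1, nearer site (chr10:86705523-86705561, plus strand): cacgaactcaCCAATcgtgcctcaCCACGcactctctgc
Hsp90b1, farther site (chr10:86705628-86705666, minus strand): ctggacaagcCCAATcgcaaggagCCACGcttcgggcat
Calr (chr8:84847065-84847103, plus strand): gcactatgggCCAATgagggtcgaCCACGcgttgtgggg
Canx (chr11:50325790-50325828, minus strand): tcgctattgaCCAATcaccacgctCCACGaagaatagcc
Dnajc3 (chr14:118937817-118937855, plus strand): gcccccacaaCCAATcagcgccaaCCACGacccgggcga
Pdia6 (chr12:17266481-17266519, plus strand): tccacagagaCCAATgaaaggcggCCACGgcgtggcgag
Creld2 (chr15:88819510-88819548, minus strand): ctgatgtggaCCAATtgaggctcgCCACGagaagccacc
Syvn1 (chr19:6046522-6046560, plus strand): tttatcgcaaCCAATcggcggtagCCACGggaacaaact
Derl3 (chr10:75893232-75893270, minus strand): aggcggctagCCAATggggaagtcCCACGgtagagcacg
Herpud1, ERSE-II (chr8:94386367-94386397, plus strand): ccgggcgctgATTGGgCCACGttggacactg

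**Figure D1:**
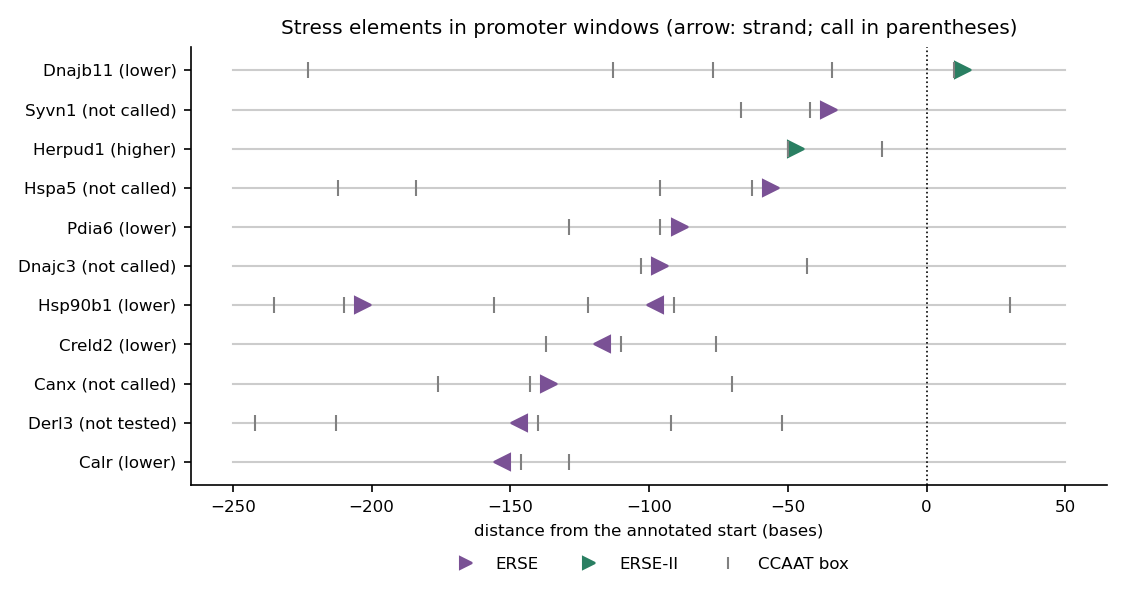
Position of ERSE, ERSE-II and CCAAT boxes (each also drawn inside an element that contains it) in the promoter windows of the 11 genes with an ERSE or ERSE-II; the x axis is the distance from the annotated start in bases, arrows show the strand of an element, and each gene's call between AThi and ATlo stands in parentheses. The 11 genes include 5 called lower, 1 called higher, 4 not called and 1 not tested.

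Values are FPKM, in which fragments are counted per length of transcript and per depth of sequencing, so genes can be set side by side within a library. The implied depth was 27600000 to 45000000 reads per library. P4hb, the gene of protein disulfide isomerase, was the most abundant in all 5 libraries at 619 to 855 FPKM. Calr, the calreticulin gene, came next at 310 to 385 FPKM, and its range did not touch that of P4hb or of any gene below it. Hsp90b1, Pdia3 and Hspa5 followed at mean levels of 195, 193 and 193 FPKM, with overlapping ranges and no fixed order. Canx, Pdia6 and Herpud1 lay between 113 and 171 FPKM. Pdia4, Os9 and Xbp1 lay between 57.7 and 114 FPKM. Below them, 20 genes lay between 5.37 and 70.7 FPKM, and most neighbours among them overlapped. Derl3 stood apart at 0.10 to 0.85 FPKM. The 32 genes summed to 0.958% and 1.002% of the FPKM total in AThi and to 0.905% to 0.942% in ATlo. Without P4hb the groups overlapped on that scale: the other 31 genes made up 0.696% and 0.705% in AThi and 0.690% to 0.721% in ATlo.

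**Figure D2:**
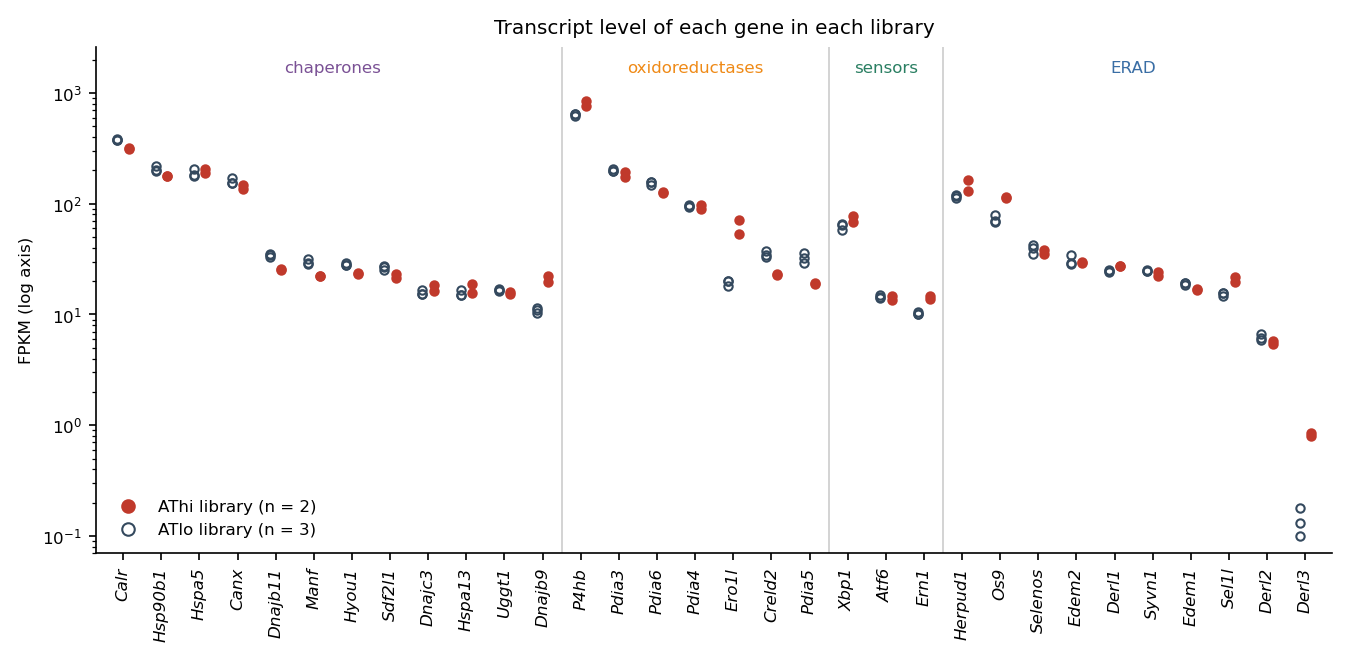
FPKM of each of the 32 genes in each library on a log axis, grouped by role and ordered by mean level; filled points are the 2 AThi libraries and open points the 3 ATlo libraries. P4hb is the highest gene and Derl3 the lowest, and the points of both groups part most widely for Ero1l, Dnajb9 and Derl3.

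The comparison of AThi with ATlo asks which of these genes differ between cells with high and with low autophagy flux from 1 line. The machinery did not move as a block: 7 genes rose, 9 fell and 15 did not pass, of 31 tested. The falls were in chaperones (6 of 12) and oxidoreductases (3 of 7), with 0 among the 3 sensors or factors and the 9 ERAD genes tested. The rises were in Ero1l and P4hb among oxidoreductases, in Dnajb9 among chaperones, in Ern1 among sensors, and in Os9, Sel1l and Herpud1 among ERAD genes. The test was limma on log2(FPKM + 0.5) over 11397 genes, with a Benjamini-Hochberg adjusted p under 0.05 as the threshold, and changes below are log2 fold changes on that scale, AThi minus ATlo. The 16 calls are 51.6% of the 31 genes tested, the same as the 51.6% called over all genes tested, of which 22.2% were higher and 29.4% lower. The median log2 fold change of the 31 genes was -0.08, against -0.03 over all genes tested. AThi and ATlo values were fully separate in 24 of the 31 genes, or 77.4%, against 70.3% of all genes tested. With each library rescaled to the same total the counts were 9 higher and 8 lower without Derl3, since Xbp1 and Derl1 passed and Hsp90b1 did not. Derl3 made the count 10 higher, but on that scale it reached the minimum of 1 only through AThi (mean 1.42 over all libraries, 0.460 over ATlo).

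**Figure D3:**
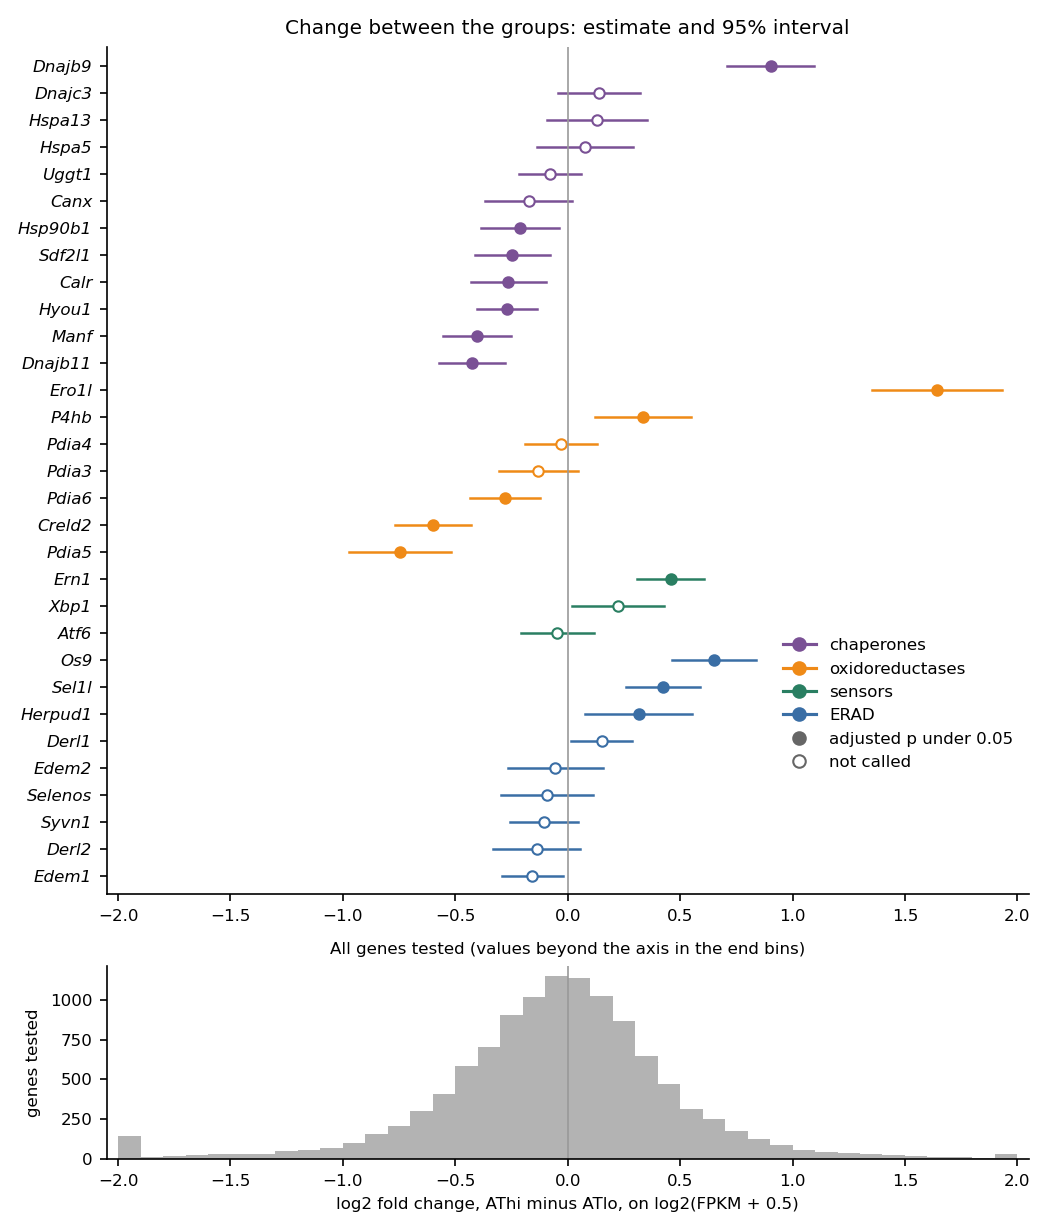
Upper panel: log2 fold change (AThi minus ATlo, on log2(FPKM + 0.5)) of the 31 tested genes with the 95% interval of the limma fit, filled where the adjusted p was under 0.05, grouped by role. Lower panel: the same quantity for all 11397 genes tested; Ero1l at 1.64 and Pdia5 at -0.75 mark the ends of the set.

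The 2 groups also differed in features that reach beyond the ER, and their part in the results below was not tested. Of 19 immediate-early genes, which respond to cell handling, 17 were higher and 0 lower in AThi, and their summed level was 4514 and 7047 FPKM in AThi against 1646 to 2588 FPKM in ATlo. Of 3 heat-shock genes on the same list, Hsph1 was lower and Hspa1a and Hspa1b did not pass. All 10 proliferation markers were lower, summing to 49.9 and 53.5 FPKM against 288 to 381 FPKM. Over all genes tested, 22.2% were higher and 29.4% lower. Mitochondrially encoded transcripts made up 7.51% and 10.0% of the FPKM total in AThi and 5.53% to 5.98% in ATlo. Of the epithelial markers, Krt8, Krt18, Krt19, Krt7 and Cdh1 were at 71.2 FPKM or more in every library, Epcam at 1.51 to 3.57 FPKM and Cldn4 at 0 to 0.15 FPKM. The lists of 6 immune, 6 fibroblast and 5 endothelial markers summed to at most 0.16 FPKM in any library, and of the 7 acinar genes Cpa1, Prss1, Amy2a5 and Pnlip were listed at 0 in all 5 libraries. The other acinar genes were Cela1 at 10.2 to 12.9 FPKM, Ctrb1 at 0.62 and 0.58 FPKM in AThi against 0 to 0.03 FPKM in ATlo, and Bhlha15 at 0.48 and 0.49 FPKM against 0.39 to 0.44 FPKM.

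Among the Hsp70 and Hsp90 chaperones, the 2 central members had unlike results. Hspa5 was at 191 and 208 FPKM in AThi and at 183, 207 and 178 FPKM in ATlo. The groups overlapped, and its log2 fold change was 0.08, with a 95% interval of -0.14 to 0.29 and an adjusted p of 0.507. Hsp90b1, which encodes Grp94, was at 178 and 177 FPKM in AThi and at 197, 218 and 204 FPKM in ATlo. Both AThi values lay below all ATlo values, and Hsp90b1 fell by 0.21 ± 0.07 (SE, limma adjusted p 0.0446). That call was lost in 4 of the 5 fits with 1 library left out (adjusted p 0.0877 to 0.181), all but the fit without ATlo replicate 1. Exons of 1810014B01Rik, a pseudogene on the opposite strand, cover 10.3% of the exonic bases of Hsp90b1, and the strand setting of the counting is not given in the sources used here. The promoters shown above hold 1 exact ERSE in Hspa5 and 2 in Hsp90b1. Hyou1, the gene of the large chaperone Grp170 that exchanges nucleotide on BiP, was at 23.5 and 23.4 FPKM in AThi and at 28.1, 29.0 and 28.1 FPKM in ATlo. It fell by 0.27 ± 0.06 (SE, limma adjusted p 0.00682), and the groups did not overlap. Hspa13, a microsome-associated Hsp70-like protein gene, was at 15.6 and 18.8 FPKM in AThi and at 15.1 to 16.7 FPKM in ATlo, which overlapped (adjusted p 0.280).

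The J-domain cochaperones, which bring substrates to BiP and stimulate its ATPase, went in different directions. Dnajb9, which encodes ERdj4 (GRCm38, GENCODE M21: chr12:44205559-44210326, minus strand), was at 22.2 and 19.6 FPKM in AThi and at 11.1, 10.2 and 11.5 FPKM in ATlo. The groups stood well apart, and Dnajb9 rose by 0.90 ± 0.08 (SE, limma adjusted p 0.000241), a ratio of 1.91 between the mean FPKM. Dnajb11, which encodes ERdj3, was at 25.6 and 25.1 FPKM in AThi and at 32.8, 35.4 and 34.5 FPKM in ATlo. It fell by 0.43 ± 0.06 (SE, limma adjusted p 0.00149), with no overlap. Dnajc3, the gene of p58IPK, was at 18.3 and 16.4 FPKM in AThi and at 15.2 to 16.7 FPKM in ATlo, with overlap and an adjusted p of 0.168. Sdf2l1, whose product forms a complex with ERdj3, was at 23.0 and 21.4 FPKM in AThi and at 27.7, 25.0 and 26.6 FPKM in ATlo. It fell by 0.25 ± 0.07 (SE, limma adjusted p 0.0234), a call lost without AThi replicate 2, ATlo replicate 1 or ATlo replicate 3 (adjusted p 0.0511 to 0.127). Manf, the gene of a secreted ER stress-responsive factor that binds BiP, was at 22.5 and 22.3 FPKM in AThi and at 29.2, 31.4 and 28.7 FPKM in ATlo. All AThi values lay below, and Manf fell by 0.40 ± 0.06 (SE, limma adjusted p 0.00223).

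In the calnexin and calreticulin cycle, which retains glycoproteins until they fold, 1 of 3 genes passed, against 51.6% of all genes tested. Calr was at 321 and 310 FPKM in AThi and at 379, 385 and 374 FPKM in ATlo. It fell by 0.26 ± 0.07 (SE, limma adjusted p 0.0180), and the call was lost without AThi replicate 2 (adjusted p 0.0745) and without ATlo replicate 2 (adjusted p 0.0905). Its membrane-bound homologue gene Canx was at 148 and 135 FPKM in AThi and at 153, 155 and 171 FPKM in ATlo, which did not overlap but did not pass (adjusted p 0.112). Uggt1, whose product senses misfolded glycoproteins and returns them to the cycle, had a log2 fold change of -0.08 with a 95% interval of -0.22 to 0.06 and did not pass. Summed, the 12 chaperone genes were at 1008 and 990 FPKM in AThi and at 1087 to 1143 FPKM in ATlo. Without Calr, Hsp90b1 and Hspa5 the other 9 summed to 318 and 294 FPKM in AThi against 329 to 350 FPKM in ATlo. As a share of the FPKM total these 9 overlapped, at 0.1093% and 0.1021% in AThi against 0.1091% to 0.1190% in ATlo.

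The oxidoreductases held the largest rise and the largest falls of the 31 tested genes. Ero1l encodes ERO1-alpha, the oxidase that recharges protein disulfide isomerase, and it is also known as a hypoxia target. The gene spans chr14:45283087-45318771 on the minus strand (GRCm38, GENCODE M21, as for the positions below). Ero1l was at 53.3 and 70.7 FPKM in AThi and at 18.0, 20.3 and 19.9 FPKM in ATlo. The lower AThi value was more than double the highest ATlo value, with a ratio of 3.20 between the mean FPKM and a log2 fold change of 1.64 ± 0.12 (SE, limma adjusted p 0.000117). P4hb (chr11:120560298-120573253, minus strand) was at 763 and 855 FPKM in AThi and at 650, 652 and 619 FPKM in ATlo. It rose by 0.34 ± 0.09 (SE, limma adjusted p 0.0189) without overlap. The P4hb call was lost without AThi replicate 2 (log2 fold change 0.25, adjusted p 0.0915), without ATlo replicate 2 (adjusted p 0.0688) and without ATlo replicate 3 (adjusted p 0.0570). For both genes AThi replicate 2 was the higher of the pair, as it was for the summed immediate-early genes. Among the other genes that rose, Os9 and Herpud1 were also higher in AThi replicate 2, and Dnajb9, Ern1 and Sel1l in AThi replicate 1. A link between these orders was not tested.

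The other disulfide isomerases were lower or did not pass. Pdia5 (chr16:35397312-35490873, minus strand) was at 18.7 and 19.4 FPKM in AThi and at 36.0, 32.3 and 28.9 FPKM in ATlo. It fell by 0.75 ± 0.10 (SE, limma adjusted p 0.00090), and the groups stood apart. Creld2, an ER stress-induced gene whose product has isomerase activity, was at 23.4 and 22.6 FPKM in AThi and at 34.4, 37.7 and 33.4 FPKM in ATlo. It fell by 0.60 ± 0.07 (SE, limma adjusted p 0.000687), again without overlap. Pdia6 was at 129 and 125 FPKM in AThi and at 158, 156 and 149 FPKM in ATlo, a fall of 0.28 ± 0.07 (SE, limma adjusted p 0.0109). Its call was lost without AThi replicate 2 (adjusted p 0.0547) and without ATlo replicate 2 (adjusted p 0.0550). Pdia3, the gene of ERp57 that works with calnexin and calreticulin, was at 192 and 174 FPKM in AThi and at 197, 207 and 196 FPKM in ATlo, with an adjusted p of 0.177. Pdia4, the gene of ERp72, had a log2 fold change of -0.03 with a 95% interval of -0.19 to 0.13. Without P4hb and Ero1l the other 5 oxidoreductase genes summed to 461 and 431 FPKM in AThi and to 503 to 527 FPKM in ATlo.

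Of the sensors and factors, Ern1 alone passed among the 3 genes tested, or 33.3% against 51.6% of all genes tested. Ern1, the gene of IRE1-alpha, was at 14.7 and 13.9 FPKM in AThi and at 10.2, 10.6 and 10.1 FPKM in ATlo. It rose by 0.46 ± 0.06 (SE, limma adjusted p 0.00122), with no overlap and with the call kept in all 5 fits that left out 1 library. Xbp1, the transcription factor gene whose mRNA IRE1 splices, was at 68.7 and 77.4 FPKM in AThi and at 66.3, 63.6 and 57.7 FPKM in ATlo. The AThi values lay above, and its log2 fold change of 0.22 missed the threshold (adjusted p 0.0663), while it passed with each library rescaled to the same total (0.26, adjusted p 0.0398) and with median ratio scaling (0.26, adjusted p 0.0457). Atf6, the gene of the sensor that is cleaved in the Golgi, was at 14.6 and 13.4 FPKM in AThi and at 14.1, 15.03 and 14.3 FPKM in ATlo. Its groups overlapped, and its 95% interval ran from -0.21 to 0.11.

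In ERAD, 3 of the 9 genes tested rose: Os9, Sel1l and Herpud1. These are 33.3% of the 9, against 22.2% higher over all genes tested. Os9, a lectin gene whose product brings trimmed glycoproteins to the ligase complex (chr10:127095650-127121131, minus strand), was at 113 and 114 FPKM in AThi and at 79.0, 68.5 and 70.0 FPKM in ATlo. The groups stood apart, and Os9 rose by 0.65 ± 0.08 (SE, limma adjusted p 0.000735). Sel1l, the adaptor that holds the ligase complex together, was at 21.8 and 19.8 FPKM in AThi and at 15.6, 14.8 and 15.7 FPKM in ATlo. It rose by 0.42 ± 0.07 (SE, limma adjusted p 0.00258). Syvn1, which encodes the ligase HRD1 itself, was at 22.1 and 24.2 FPKM in AThi and at 25.4, 24.7 and 24.7 FPKM in ATlo. It did not pass, with a log2 fold change of -0.11 and a 95% interval of -0.26 to 0.05, and whether it differs from Sel1l in its change was not tested. Herpud1, which recruits and stabilises parts of the complex and carries the ERSE-II shown above, was at 130 and 162 FPKM in AThi and at 117, 120 and 113 FPKM in ATlo. It rose by 0.32 ± 0.10 (SE, limma adjusted p 0.0345), and of the fits with 1 library left out, the call held only in that without AThi replicate 1. Its log2 fold change dropped to 0.16 without AThi replicate 2 (adjusted p 0.168), and without ATlo replicates 1, 2 or 3 the adjusted p was 0.0681, 0.0683 and 0.0839.

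The mannosidase-like genes Edem1 and Edem2, whose products mark glycoproteins for ERAD, did not pass. Edem1 was at 17.1 and 16.8 FPKM in AThi and at 19.2, 19.2 and 18.5 FPKM in ATlo, with no overlap, a log2 fold change of -0.16 and an adjusted p of 0.0564. Edem2 was at 29.9 and 29.0 FPKM against 28.6 to 34.2 FPKM. Selenos, a selenoprotein gene whose product links p97 to the membrane, was at 35.4 and 37.9 FPKM against 35.5 to 42.1 FPKM. The derlins, membrane proteins that help substrates cross, had unlike levels. Derl1 was at 27.6 and 27.3 FPKM in AThi and at 25.1, 24.9 and 24.0 FPKM in ATlo, above without overlap (adjusted p 0.0626). It passed with each library rescaled to the same total (0.19, adjusted p 0.0272) and with median ratio scaling (0.19, adjusted p 0.0313). Derl2 was at 5.82 and 5.37 FPKM against 5.86 to 6.66 FPKM and did not pass (adjusted p 0.197).

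Derl3 was the 1 gene of the 32 below the minimum of a mean of 1 FPKM and so was not tested in the fit above. Derl3 (chr10:75893413-75895941, plus strand) was at 0.80 and 0.85 FPKM in AThi and at 0.13, 0.18 and 0.10 FPKM in ATlo, a ratio of 6.04 between the mean FPKM. These levels correspond to about 44 and 76 reads in AThi and to about 11, 13 and 8 reads in ATlo. In the fit with no minimum, Derl3 had a log2 fold change of 1.06 (limma adjusted p 0.00295), which the added 0.5 makes smaller than the ratio of the levels. With each library rescaled to the same total, where the 0.5 weighs less, it was 1.81. On that scale Derl3 reached the minimum of 1 only through AThi, so that fit lends its rise no support. Its promoter holds an exact ERSE, shown above. Summed over all 10 ERAD genes, levels were 404 and 438 FPKM in AThi and 337 to 362 FPKM in ATlo. Without Herpud1 and Os9 the other 8 summed to 161 and 161 FPKM in AThi, inside the ATlo range of 154 to 166 FPKM. As a share of the FPKM total they were at 0.0552% and 0.0559% in AThi, above the ATlo range of 0.0522% to 0.0549%.

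**Figure D4:**
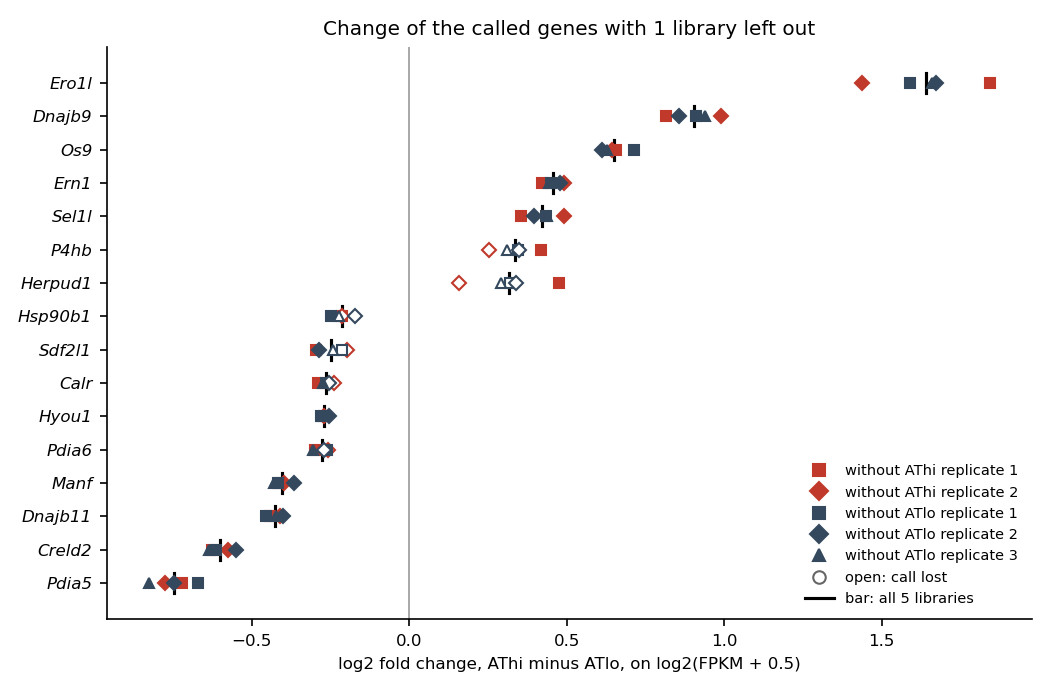
Log2 fold change (AThi minus ATlo) of the 16 called genes with each library left out in turn; red symbols are fits without an AThi library, dark symbols fits without an ATlo library, open symbols mark a lost call and black bars the value from all 5 libraries. Ero1l, Dnajb9, Os9, Ern1 and Sel1l among the rises, and Pdia5, Creld2, Dnajb11, Manf and Hyou1 among the falls, kept their call in all 5 fits.

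Of the 7 genes that rose, 5 stayed past the threshold in every fit that omitted 1 library, and so did 5 of the 9 that fell. The other 6 were P4hb, Herpud1, Hsp90b1, Sdf2l1, Calr and Pdia6. Without AThi replicate 2, the counts were 5 higher and 5 lower. None of the 15 genes that did not pass gained a call in these fits. Between the presence of an element and the call there was no simple match: of the 9 genes with an exact ERSE, Hsp90b1, Calr, Pdia6 and Creld2 fell, Hspa5, Canx, Dnajc3 and Syvn1 did not pass, and Derl3 was not tested. Of the 2 genes with an ERSE-II, Herpud1 rose and Dnajb11 fell. All 7 genes that rose had a promoter window, and 0 of these windows held an exact ERSE. The Dnajb9 window lies wholly within the GENCODE M21 gene, whose start is farther upstream, so sequence before that start was not searched. Of the genes that fell, 7 had a window and 4 of these held an ERSE, while Hyou1 and Manf had no window. Of the genes not called, 12 had a window and 4 of these held an ERSE.

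The other genes of the pathway were taken from a list of 124 symbols in 7 roles, of which 122 were in the table under the names used, and the other 2 were not analysed here. Of 113 tested, 21 rose, 37 fell and 55 did not pass, so 51.3% were called against 51.6% of all genes tested. Their median log2 fold change was -0.05. Without AThi replicate 1, or without ATlo replicate 2, 13 were called higher in place of 21.

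Among other sensors and membrane-bound factors, 4 of 10 rose, 1 fell and 5 did not pass. The share called in either direction was thus just below the 51.6% of all genes tested. Eif2ak3, the gene of PERK, was at 8.83 and 9.54 FPKM in AThi and at 7.02, 6.77 and 6.47 FPKM in ATlo. It rose by 0.42 (limma adjusted p 0.00312). Ern2, the paralogue of Ern1, was at 17.8 and 18.7 FPKM in AThi against 15.6 to 17.6 FPKM in ATlo. Its log2 fold change of 0.12 did not pass (limma adjusted p 0.206). Creb3l1, a membrane-bound factor of the ATF6 type, rose by 1.17 ± 0.09 (SE), from 2.75 to 3.23 FPKM in ATlo to 6.96 and 7.48 FPKM in AThi. Its relatives Creb3l4 and Creb3l2 rose by 0.61 and 0.42. Atf6b, the paralogue of Atf6, fell by 0.51 ± 0.07 (SE), from 36.7 to 38.2 FPKM in ATlo to 24.5 and 28.0 FPKM in AThi. The list of the ATF4 and CHOP branch, downstream of PERK, had 4 genes higher, 1 lower and 2 not called of 7. That is 71.4% called, against 51.6% of all genes tested. Ddit3, the gene of CHOP, was at 15.5 and 25.4 FPKM in AThi against 5.32 to 10.7 FPKM in ATlo, and Atf4 was at 170 and 245 FPKM against 214 to 266 FPKM. Ddit3 rose (limma adjusted p 0.00737) and Atf4 did not pass (adjusted p 0.337). The phosphatase subunit gene Ppp1r15a rose by 1.70, Trib3 by 0.62 and Sesn2 by 0.40, Chac1 did not pass, and Asns, an amino acid synthesis gene and ATF4 target, fell by 0.92 (limma adjusted p 0.000131).

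Other folding factors were mixed. Of the cofactors and chaperones tested 35.7% were called and of the oxidoreductases 47.1%, against 51.6% of all genes tested. Of 14 other cofactors and chaperones, 4 rose and 1 fell, led by Dnajc10, the gene of the disulfide reductase ERdj5, at 94.1 and 83.2 FPKM in AThi against 56.8 to 60.0 FPKM in ATlo. Sil1, a nucleotide exchange factor of BiP, rose by 0.43, Dnajc1 rose by 0.29 and Cnpy4 fell by 0.47. Of 17 other oxidoreductases, 5 rose and 3 fell: the rises included Tmx4 at 0.79, the sulfhydryl oxidase gene Qsox1 at 0.62 and Vkorc1 at 0.41, and the falls were Selenof at -0.63, Prdx4 at -0.28 and Txndc5 at -0.23. Of 8 ER prolyl isomerases, which turn proline bonds, 2 rose and 5 fell, or 87.5% called against 51.6% of all genes tested. Fkbp11 was at 17.4 and 16.4 FPKM in AThi against 30.2 to 34.3 FPKM in ATlo, a fall of 0.90 ± 0.07 (SE). Ppic and Fkbp2 fell by 0.62 and 0.53. Fkbp14 and Fkbp9 rose by 0.64 and 0.19, and Fkbp9 lay near the threshold (limma adjusted p 0.0430).

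Genes of N-glycosylation and glycan trimming were mostly lower: 12 of 18 fell, 0 rose and 6 missed the threshold, so 66.7% were called lower against 29.4% of all genes tested. Their median log2 fold change was -0.27. Their summed level was 922 and 909 FPKM in AThi against 1087 to 1117 FPKM in ATlo. The oligosaccharyltransferase subunit genes Ost4 and Ostc fell by 0.46 and 0.39, and the glucosidase gene Mogs, which starts the trimming, fell by 0.42. Of 18 translocon and signal peptidase genes, 8 fell and 2 rose, or 55.6% called against 51.6% of all genes tested. The channel subunit gene Sec61b was at 24.8 and 26.6 FPKM in AThi against 35.8 to 39.4 FPKM in ATlo, a fall of 0.55. Ssr2 and Spcs3 fell by 0.45 and 0.34, and Sec62, an accessory channel gene, rose by 0.24.

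Of 28 other ERAD genes, 7 fell, 4 rose and 17 did not pass, so 39.3% were called against 51.6% of all genes tested. Erlec1, the second ERAD lectin gene beside Os9, was at 48.4 and 40.0 FPKM in AThi against 29.4 to 31.7 FPKM in ATlo and rose by 0.54 ± 0.09 (SE, limma adjusted p 0.00296). The ligase genes Rnf185 and Rnf103 rose by 0.38 and 0.34. At the extraction step, Vcp, the gene of p97, was at 23.6 and 22.2 FPKM in AThi against 33.8 to 34.9 FPKM in ATlo. Vcp fell by 0.57 ± 0.06 (SE, limma adjusted p 0.000412), and its cofactor gene Nploc4 fell by 0.60 ± 0.06 (SE, limma adjusted p 0.000334). The third member of that complex, Ufd1, had a log2 fold change of -0.05 and did not pass. The ubiquitin-conjugating enzyme gene Ube2j2 fell by 0.50.

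**Figure D5:**
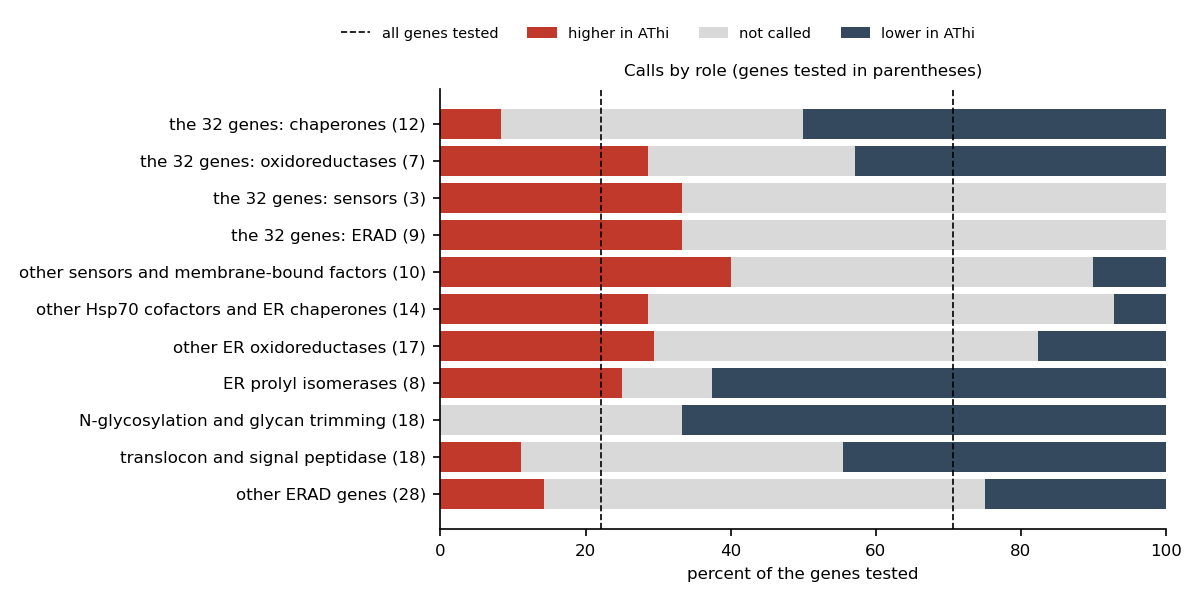
Share of tested genes called higher (red), not called (grey) and called lower (dark) in AThi for the 4 roles of the 32 genes and the 7 roles of the other pathway genes, with the number tested in parentheses; dashed lines mark the shares over all genes tested, 22.2% higher from the left and 29.4% lower from the right. Among the 9 ERAD and 3 sensor genes of the set 0 were called lower, while 12 of 18 N-glycosylation genes were.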

How the data were processed

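The authors deposited FPKM values, rounded to 2 decimals, with 1 column per library, and each column was assigned through the code in its sample title. Tools named in the submitters' processing notes are STAR, featureCounts, bcl2fastq and DESeq2, and both mm10 and GRCm38 are named as builds. For the annotation release, strand setting, multi-mapping reads and FPKM formula, the answer is not given in the sources used here. Depth was inferred from single-exon genes of at most 200 bases (GENCODE M21), in which the product of FPKM and length came in steps of 1 read (tolerance 0.1 read, 100% of 325 to 406 values per library). It is the depth the values imply, not a read count.

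The test, two-sided, took the 11397 genes whose mean reached 1 FPKM. It was limma (version 3.58.1, R 4.3.3; lmFit, then eBayes with a trend) on log2(FPKM + 0.5), group as the single term, with 3 residual and 3.89 prior degrees of freedom, and Benjamini-Hochberg adjustment over all genes tested. On simulated data for this comparison (11397 genes, 200 changed) 88.1% of 1.5-fold, 95.5% of 2-fold and 100% of 4-fold changes were recovered. There, 14 unchanged genes passed. Far fewer genes were changed in the simulation than were called in these data, and no effect shared by the genes of a library was simulated. These rates may therefore not hold here. All 32 genes are named. Of the other pathway genes, up to 3 per role and direction are named. These had the largest called change and a mean of at least 2 FPKM. Eif2ak3, Ern2, Ufd1 and the ATF4 and CHOP genes were added, chosen after their values were seen. The genes and lists were chosen with earlier results of these data known. Rows with a date-like number in place of a symbol (26) were kept in the test and not named. Promoter sequences are RefSeq's (GRCm38.p6). Other settings tried were pseudocounts, minimums, scalings, moderation, each library left out and a replicate block.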

Additional observations from a re-analysis of the deposited data

How the results depend on the processing

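The counts for the 32 genes were 7 higher and 9 lower; in the 14 alternative fits they were 5 to 10 higher (Derl3 included where tested) and 5 to 9 lower. With 1 library left out they were 5 to 7 higher and 5 to 8 lower, and the 113 or 114 other pathway genes tested gave 13 to 19 higher and 28 to 37 lower. Leaving out an AThi library leaves 1 in that group, which is then assumed to vary like the others. The median log2 fold change of the 32 genes, -0.080 over the 31 tested, was -0.032 with each library rescaled to the same total, -0.046 with median ratio scaling, and -0.097 to -0.054 with 1 library left out. Over all genes tested the median was -0.028 in the main fit. It was 0.028 with each library rescaled to the same total and 0.005 with median ratio scaling. The cause of these shifts was not tested. With no minimum on the mean, 24118 genes were tested and the calls of Hsp90b1, Calr, P4hb and Herpud1 were lost (adjusted p 0.0875 to 0.173), while Edem1 passed (adjusted p 0.0467); the other pathway genes then gave 14 higher and 35 lower. Hsp90b1 also lost its call without the trend (adjusted p 0.0510), on the same total (0.0915) and with median ratio scaling (0.0834). No called gene of the 32 changed sign in any of the 14 alternatives. Levels near 0.1 FPKM, as of Derl3 in ATlo, rest on about 8 to 13 reads and carry the least precision.

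With the replicate number as a block the counts were again 7 higher and 9 lower for the 32 genes, with a median of -0.090, and 20 higher and 34 lower for the other pathway genes. ATlo replicate 3, alone in its block, carries no weight in that fit. The block changed no call among the 32 genes. That fit leaves fewer residual degrees of freedom than the main fit, so its p-values rest more on the spread over all genes. Replicates 1 and 2 of both groups share the start of a code in their titles, which the labels do not explain, and their deviations from the group means correlated at 0.20 and 0.30. The deviations of the 2 AThi libraries mirror each other, so the unmatched pairs have the same sizes with a minus sign by construction. With ATlo replicate 3 the values were 0.06 for AThi replicate 1 and -0.06 for AThi replicate 2. The 2 pairs are not independent and do not establish a pairing.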
